A study of Arabidopsis thaliana with 14 samples.

Results

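The cytoplasmic and total RNA of aly1-2 flower buds were compared gene by gene. The 5 libraries compared were labelled aly1-2, 2 of the cytoplasmic fraction and 3 of total RNA, out of 14 libraries in the series. ALY1 encodes one of the ALY proteins, which bind RNA in the nucleus and link transcription and splicing to export of mRNA. All plants were Arabidopsis thaliana in the Columbia background, grown in 16-hour days at 22 °C, and the tissue was inflorescences with immature flower buds of stages 1 to 12. The mutant groups carried the allele aly1-2 and the controls, labelled wt Col, carried no named allele. How the allele was made, plant age and how many plants went into a library are not given in the sources used here. RNA in every library was poly(A)-selected. Wild-type total (3 libraries) and cytoplasmic RNA (2 libraries), and aly1-2 nuclear RNA (2 libraries), stand beside the mutant comparison where named. The wild-type total and cytoplasmic libraries also entered the main fit, so the mutant's SE and p-values draw on their spread too. The labels do not say whether replicates came from separate plants, so p-values measure the spread between these libraries, which may be technical.

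A total extract holds the RNA of nucleus, cytosol and organelles. A cytoplasmic extract is what stays in solution or suspension once nuclei have been spun away, so that its make-up depends on where an RNA sits in the cell and on which organelles and membranes break or sediment. Messages of secreted and membrane proteins are translated on the endoplasmic reticulum, those of most cytosolic, nuclear and plastid-targeted proteins on free ribosomes, and the plastid and mitochondrion hold RNA of their own.

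Levels are given in CPM, counts per 1e6 of the reads on nuclear-genome genes without the 4 rRNA genes, after TMM scaling, a correction for library composition. Differences are log2 values, cytoplasmic minus total, with the standard error (SE), and p-values come from edgeR's quasi-likelihood test adjusted by Benjamini-Hochberg over all genes tested, with a threshold of 0.05. Files shared some reads between genes, which left fractions in the counts, and a gene with over 10% of its counts in such values is marked here as having shared reads.

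ALY1 itself was low in the mutant. Its level was 15.2, 22.1 and 19.4 CPM in aly1-2 total RNA and 43.4 and 32.9 CPM in aly1-2 cytoplasmic RNA. In wild type it was 112, 118 and 128 CPM in total RNA and 106 and 111 CPM in cytoplasmic RNA. Every mutant library lay below every wild-type library in both fractions. Within the mutant the cytoplasmic libraries were higher than the total libraries, by 1.02 (SE 0.20, adjusted p = 0.00206), while the wild-type difference was -0.14 (adjusted p = 0.584). The difference between genotypes was 1.16 (SE 0.27) and did not pass the interaction test (adjusted p = 0.228). ALY1 had shared reads, with 43.4% of its counts in values with fractions.

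The make-up of the 2 fractions differed far more than their depth. The total libraries held 12.74, 10.24 and 11.32 M counts (M for 1e6) and the cytoplasmic libraries 10.65 and 7.94 M. The 4 rRNA genes took 3.64%, 4.90% and 6.92% of the counts in total RNA and 52.3% and 52.4% in cytoplasmic RNA. Plastid genes took 5.78%, 5.01% and 5.97% in total RNA and 16.8% and 20.3% in cytoplasmic RNA, a ratio of means of 3.32. The mitochondrial share was 0.493%, 0.611% and 0.803% in total RNA and 0.560% and 0.852% in cytoplasmic RNA, so those ranges overlapped (two-sided exact permutation test, p = 0.8). The rRNA and plastid shares did not overlap between the fractions. With 2 against 3 libraries there are 10 splits, and p = 0.2, which both shares gave in the two-sided exact permutation test, is the smallest the design allows. Nuclear-genome genes were left with 3.24 and 2.1 M counts in the cytoplasmic libraries, against 11.5, 9.16 and 9.77 M in the total libraries. Those sums include AT2G01021, a gene whose sequence matches rRNA. It took 3.14% and 3.74% of all counts in cytoplasmic RNA and at most 0.664% in total RNA. Low genes are thus counted less precisely in cytoplasmic RNA. Genes with at least 1 read numbered 22558 and 21848 in cytoplasmic RNA and 25961 to 26707 in total RNA. Every library was poly(A)-selected. Whether that selection held back rRNA and plastid RNA equally in the 2 fractions was not tested. In these shares it cannot be told apart from location in the cell.

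**Figure D1:**
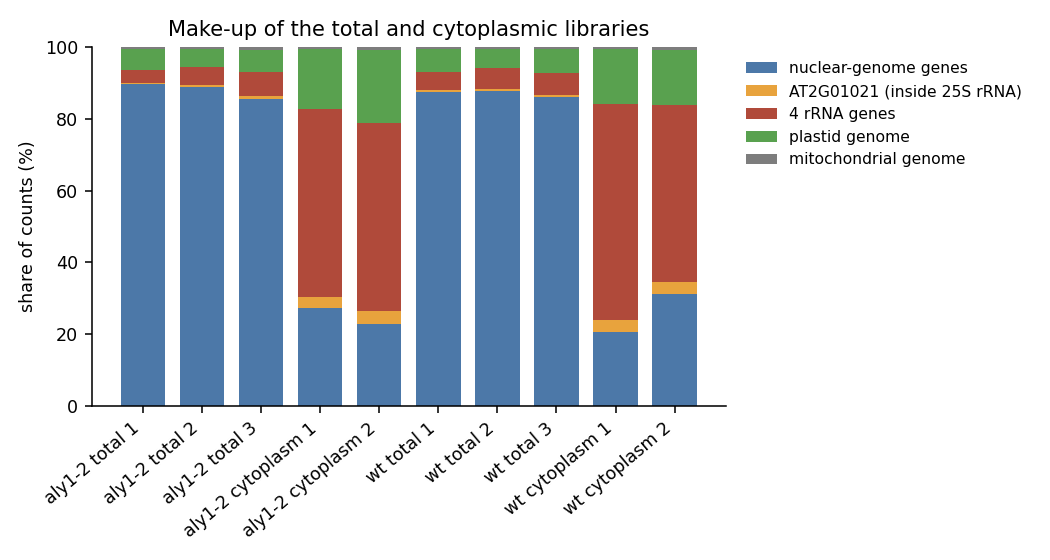
Share of counts (%, vertical axis) on each class of gene in each total and cytoplasmic library of aly1-2 and wild type. The 4 rRNA genes take 52.3% and 52.4% of the mutant cytoplasmic libraries and at most 6.92% of the mutant total libraries.

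After scaling on nuclear-genome genes, 21974 of 37336 genes were tested. Of these, 3395 (15.5%) were higher and 4801 (21.8%) were lower in aly1-2 cytoplasmic than total RNA. A difference of more than 1 on the log2 scale was found for 2139 higher genes (9.73%) and 3716 lower genes (16.9%). In 23.7% of genes every cytoplasmic library lay above every total library, and in 36.4% every one lay below. The median difference over all genes was -0.16. In a fit of only the 5 aly1-2 libraries, 21070 genes were tested, 2969 were higher and 3971 lower. The balance of higher and lower calls rests on the scaling, since 41.4% of calls were higher with TMM, 51.2% with RLE size factors, 50.9% with DESeq2 and 28.1% without a composition factor. Those settings moved the median of all genes to -0.01, -0.01 and -0.38. Lists are therefore read against the median of the same fit, and a list with shares near 15.5% higher and 21.8% lower does not stand apart from all genes.

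**Figure D2:**
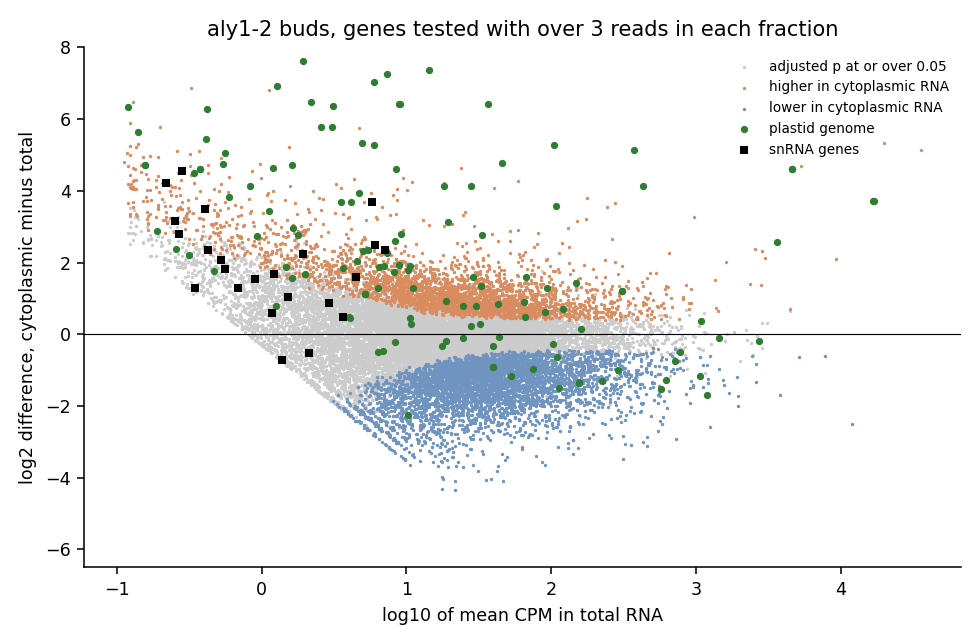
Log2 difference, cytoplasmic minus total (vertical axis), against log10 of the mean CPM in total RNA (horizontal axis) for genes with more than 3 reads in each fraction of aly1-2, 1 point a gene. Plastid-genome genes lie among the highest differences, and many snRNA genes lie above 0 although their levels in total RNA are low.

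MAPKKK15 and MAPKKK13 were among the 10 genes named for the highest differences. MAPKKK15 (AT5G55090), a kinase of the first tier of the mitogen-activated protein kinase cascades, was at 1.44, 2.09 and 1.11 CPM in total RNA and at 54.4 and 62.0 CPM in cytoplasmic RNA, 37.3-fold higher (log2 5.22, SE 0.39, adjusted p = 6.08e-06). Its relative MAPKKK13 was at 4.39, 2.82 and 2.62 CPM in total RNA and at 59.7 and 62.0 CPM in cytoplasmic RNA (log2 4.19, SE 0.33, adjusted p = 8.52e-06). Both groups were tight and far apart. Other kinases of the same family, looked up after these values were seen, did not all move together. MAPKKK16 was higher by 5.12 (SE 0.64) and MAPKKK14, which had shared reads, by 4.24 (SE 0.24). MAPKKK18 was higher by 1.04 (SE 0.28, adjusted p = 0.0115), a call lost without cytoplasmic replicate 1. MAPKKK17 was lower, at 5.33, 5.65 and 5.54 CPM in total RNA and 2.47 and 0.53 CPM in cytoplasmic RNA (log2 -1.73, SE 0.56, adjusted p = 0.0297). That call was lost without cytoplasmic replicate 2, total replicate 2 or total replicate 3, with the replicate block and with only the 5 aly1-2 libraries. MAPKKK19, MAPKKK20 and MAPKKK21 did not pass the test, at -0.64 (SE 1.64), 0.94 (SE 0.74) and -0.91 (SE 0.48). Each of these kinase genes has 1 annotated exon.

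GNC, LHY and GLIP7 were also among those 10 genes. GNC, a GATA factor that promotes greening, was at 7.27, 9.10 and 9.37 CPM in total RNA and at 132 and 153 CPM in cytoplasmic RNA (log2 4.05, SE 0.43, adjusted p = 5.25e-05). LHY, a morning-phased factor of the circadian clock, was at 3.04, 1.67 and 3.23 CPM in total RNA and at 34.6 and 39.2 CPM in cytoplasmic RNA (log2 3.78, SE 0.53, adjusted p = 0.000269). GLIP7, a lipase of the GDSL family, was at 4.14, 5.23 and 5.84 CPM in total RNA and at 60.4 and 71.0 CPM in cytoplasmic RNA (log2 3.69, SE 0.24). Nuclear RNA of aly1-2 held these 3 genes near their total levels: GNC at 10.6 and 13.4 CPM, LHY at 3.53 and 2.51 CPM, and GLIP7 at 7.30 and 5.16 CPM. For GNC both nuclear libraries lay above every total library, so its total level did not lie between the 2 fractions. For LHY and GLIP7 the nuclear and total ranges overlapped. Nuclear levels were scaled in the fit of all 14 libraries, the others in the main fit. Why total RNA was not between the fractions was not tested. Among abundant messages, AT4G22000, annotated as a tyrosine sulfotransferase-like protein, was at 227, 260 and 242 CPM in total RNA and at 2660 and 3060 CPM in cytoplasmic RNA, 11.8-fold higher (adjusted p = 5.16e-06). No cytoplasmic library came near a total library for this gene.

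FPA, an RNA-binding protein of the autonomous flowering pathway that controls the choice of poly(A) site, was the member of the polyadenylation and decay list with the lowest p. Its level was 23.2, 27.5 and 23.2 CPM in total RNA and 263 and 230 CPM in cytoplasmic RNA, 10-fold higher (log2 3.32, SE 0.19, adjusted p = 8.09e-07). FPA had shared reads, with 38.2% of its counts in values with fractions. A pair of genes annotated as pre-mRNA cleavage complex II proteins, picked out after their values were seen, behaved likewise. AT1G66500 was at 49.5, 61.2 and 66.9 CPM in total RNA and at 1210 and 1070 CPM in cytoplasmic RNA, and AT5G43620 was at 17.1, 24.6 and 30.3 CPM and at 553 and 633 CPM. Both had shared reads (74.8% and 78.9%). PCFS4, another cleavage factor of this kind, was at 21.0, 24.3 and 25.3 CPM in total RNA and at 15.9 and 28.1 CPM in cytoplasmic RNA, which overlap.

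**Figure D3:**
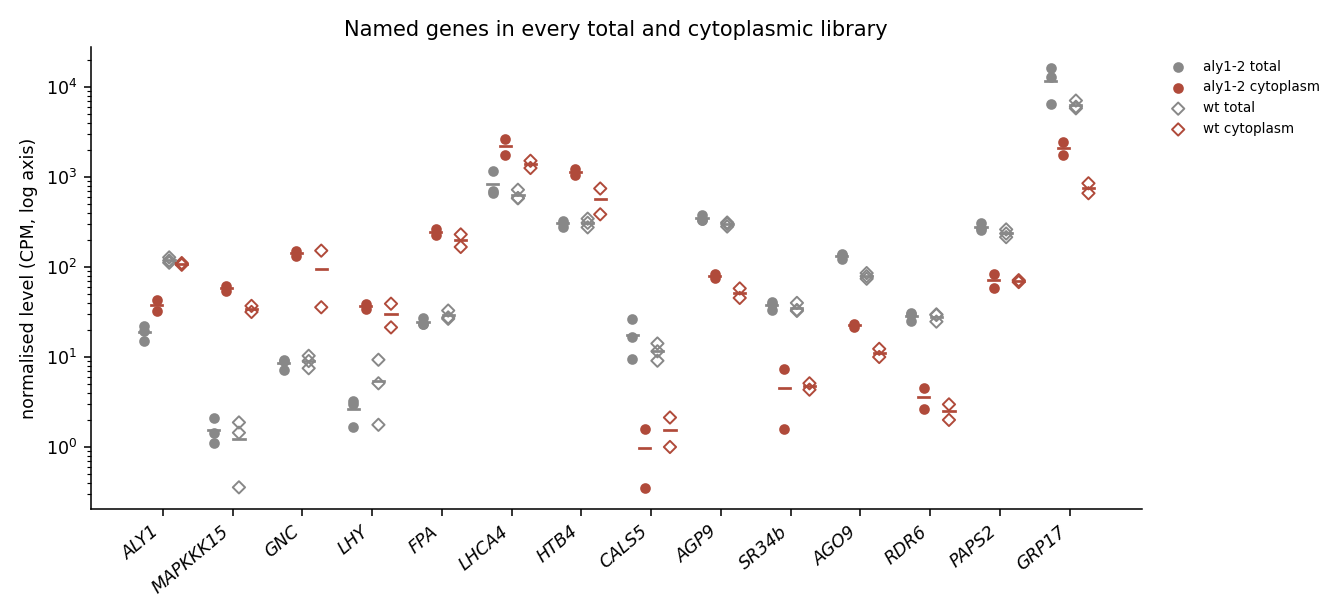
Level in CPM (vertical axis, log scale) of 14 genes in every total (grey) and cytoplasmic (red) library, with circles for aly1-2, diamonds for wild type and bars for the mean. MAPKKK15, GNC, LHY, FPA, LHCA4 and HTB4 lie higher in the cytoplasmic libraries of aly1-2, while CALS5, AGP9, SR34b, AGO9, RDR6, PAPS2 and GRP17 lie lower.

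Plastid-genome genes were mostly higher. Of 133 plastid-genome genes in the files 128 were tested, and 79 (61.7%) were higher and 16 (12.5%) lower, with a median difference of 1.89. ATCG00620 was at 48.9, 25.7 and 34.9 CPM in total RNA and at 3290 and 2980 CPM in cytoplasmic RNA (log2 6.42, SE 0.30, adjusted p = 2.38e-07). ATCG00100, which had no shared reads, was at 3.8, 3.24 and 2.22 CPM in total RNA and at 153 and 192 CPM in cytoplasmic RNA (log2 5.78, SE 0.27). Both were named for their low p and lie above the list's upper quartile of 4.53, so they are not typical of plastid genes. The reference used here gives no names for organelle genes. Organelle rRNA and tRNA genes are therefore not told apart from messages here, in the counts or the examples. Not all plastid genes moved together, since the lower 16 belong to the same genome. Mitochondrial genes went the other way on balance. Of 152 in the files 70 were tested, 7 (10%) were higher and 25 (35.7%) lower, and the median was -1.22. The count of lower mitochondrial genes was 15 without cytoplasmic replicate 2 and 15 without total replicate 3. ATMG00090 was at 175, 163 and 210 CPM in total RNA and at 31.1 and 17.5 CPM in cytoplasmic RNA (log2 -2.88, SE 0.33, 64.5% of counts in shared values). ATMG01390, all of whose counts lay in shared values, was at 1900, 2810 and 3900 CPM in total RNA and at 11400 and 17500 CPM in cytoplasmic RNA (log2 2.33, SE 0.28). In aly1-2 nuclear RNA, ATMG00090 was at 428 and 566 CPM, above its level in the total libraries.

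Of 42 nuclear genes for photosynthesis tested, 19 (45.2%) were higher and 3 (7.14%) lower, with a median of 0.53. The lower count was 1 without cytoplasmic replicate 2. LHCA4, an antenna protein of photosystem I, was at 1170, 673 and 700 CPM in total RNA and at 2640 and 1780 CPM in cytoplasmic RNA (log2 1.38, SE 0.25, adjusted p = 0.0014). PETE2, a plastocyanin that carries electrons to photosystem I, was at 516, 369 and 410 CPM in total RNA and at 1210 and 992 CPM in cytoplasmic RNA (log2 1.35, SE 0.19). GAPA, a chloroplast glyceraldehyde-3-phosphate dehydrogenase, was at 390, 424 and 387 CPM in total RNA and at 941 and 934 CPM in cytoplasmic RNA, 2.34-fold higher (adjusted p = 8.49e-05). In all of these the groups did not overlap. The summed level of the 4 mesophyll markers CAB1, CAB2, RBCS1A and LHCB2.1 was 11400, 8340 and 7140 CPM in total RNA and 8570 and 6690 CPM in cytoplasmic RNA, ranges that overlap. Proteins made from such nuclear messages are imported into the plastid after translation in the cytosol.

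Messages of the translation machinery were mixed. Of 283 cytosolic ribosomal protein genes tested, 95 (33.6%) were higher and 25 (8.83%) lower, with a median of 0.28. The lower count was 13 without cytoplasmic replicate 2 and 16 without total replicate 2. AT5G60670, an L11-family protein of the large subunit, was at 88.2, 80.4 and 72.5 CPM in total RNA and at 197 and 195 CPM in cytoplasmic RNA (log2 1.29, SE 0.15, adjusted p = 7.57e-05). Of 19 translation factors, 4 (21.1%) were higher and 6 (31.6%) lower, with a median of -0.04. The higher count was 2 without cytoplasmic replicate 1. ERF1-2, a release factor that reads stop codons, was at 51.5, 44.6 and 45.8 CPM in total RNA and at 154 and 101 CPM in cytoplasmic RNA (log2 1.43, SE 0.22). LOS1, an elongation factor that moves the ribosome along the message, was at 704, 720 and 602 CPM in total RNA and at 358 and 311 CPM in cytoplasmic RNA (log2 -1.01, SE 0.16, with all counts in shared values). RACK1A, a scaffold protein of the small ribosomal subunit, was lower by 1.68 (its log2 difference was -1.68, SE 0.16, 95.5% in shared values).

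Core histones and some genes of cell division also stood above the all-gene median. Of 46 histone genes tested, 16 (34.8%) were higher and 3 (6.52%) lower, with a median of 0.33. Without total replicate 2 the higher count was 8. AT2G37470, a histone gene of 1 exon, was at 65.9, 55.1 and 56.7 CPM in total RNA and at 178 and 184 CPM in cytoplasmic RNA (log2 1.61, SE 0.17, adjusted p = 4.19e-05). Of 26 mitotic genes, 9 (34.6%) were higher and 4 (15.4%) lower, with a median of 0.36. The higher count of that list was 3 to 5 without any one of the 3 total libraries and 4 without cytoplasmic replicate 2, and its lower count was 2 without total replicate 2. KN, the syntaxin KNOLLE of the forming cell plate, was at 49.4, 52.5 and 40.7 CPM in total RNA and at 133 and 198 CPM in cytoplasmic RNA (log2 1.79, SE 0.21). CYCD3;1, a cyclin that starts the cell cycle, went the other way, from 70.1, 71.1 and 58.8 CPM to 26.8 and 23.3 CPM (log2 -1.40, SE 0.19, 37.5% in shared values). Histone messages in plants carry poly(A) tails, so poly(A) selection keeps them.

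From 500 bases upward the median difference fell with the length of the message. The longest annotated transcript of each of the 20637 protein-coding genes tested was set beside its difference. From 500 to under 1000 bases (2816 genes) 21.9% were higher and 9.62% lower, with a median of 0.24. From 1000 to under 2000 bases (10147 genes) the median was 0.03, and from 2000 to under 3000 bases (5112 genes) it was -0.37. At 3000 bases and over (2287 genes) 3.85% were higher and 50.7% lower, with a median of -0.96. The class under 500 bases (275 genes) had a median of 0.03, with 12.7% higher and 13.8% lower. Without total replicate 2 the higher genes from 500 to under 1000 bases fell in number from 616 to 408 and the lower ones from 271 to 176, and those higher from 2000 to under 3000 bases fell from 543 to 357. Under 500 bases the 35 higher and 38 lower genes became 21 and 24 without that library, 22 and 21 without cytoplasmic replicate 1, and the lower ones 25 without total replicate 3. In wild type the median at 3000 bases and over was -0.93. The genes of a class come from the same 5 libraries and are not replicates, so these medians are descriptions.

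Exon number and base composition were also set beside the difference. Genes of 10 or more exons had a median of -0.53, but from 1000 to under 2000 bases it was -0.09, against 0.13 for genes of 1 exon. From the lowest to the highest of 4 equal classes of GC content, with bounds at 39.7%, 41.3% and 42.8%, the medians were 0.13, -0.05, -0.26 and -0.46. From 1000 to under 2000 bases they were 0.18, 0.10, 0.01 and -0.20. The order of the classes was thus the same inside that length class.

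Genes whose protein carries a hydrophobic stretch had lower medians than the others of their length class from 500 bases upward. An N-terminal hydrophobic stretch was scored where the mean Kyte-Doolittle hydropathy reached 2 over 8 residues within the first 30 residues. A membrane-span-like window was scored where that mean reached 1.6 over 19 residues lying wholly past the first 30. Neither score is a called signal peptide or transmembrane helix. Of 4937 genes with the N-terminal stretch, 10.1% were higher and 27.5% lower, with a median of -0.45, and the higher ones fell in number from 498 to 312 without total replicate 2. Of 3952 with only the membrane-span-like window, 12.0% were higher and 28.2% lower, with a median of -0.39. The 11748 genes with neither had 17.9% higher, with a median of 0.02. From 1000 to under 2000 bases the 3 medians were -0.30, -0.15 and 0.17. At 3000 bases and over they were -1.21, -1.10 and -0.80.

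**Figure D4:**
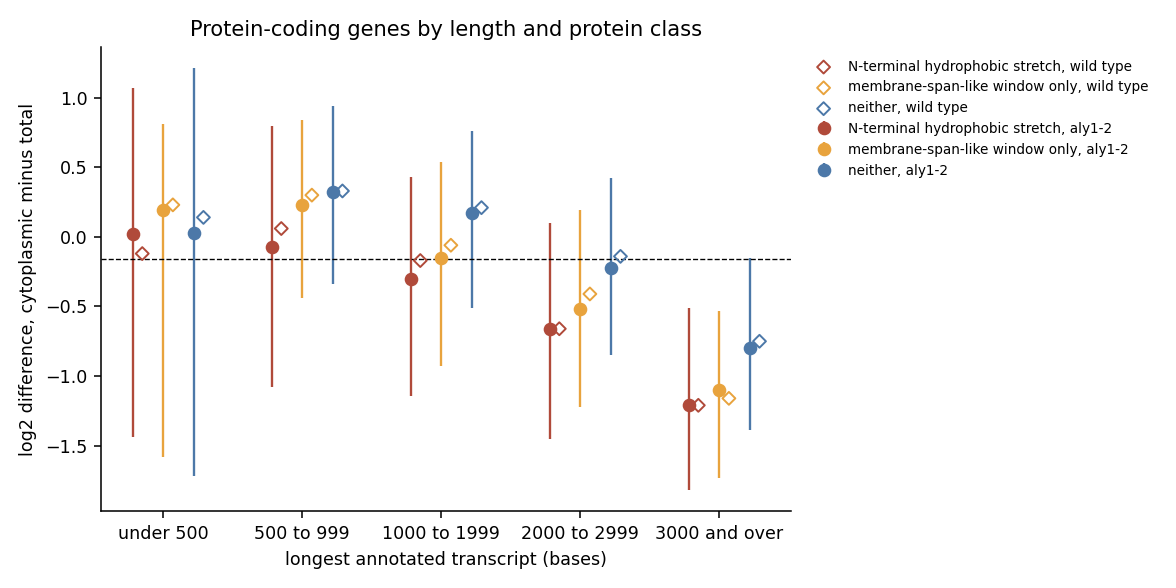
Median log2 difference (vertical axis) by length class of the longest annotated transcript (horizontal axis, bases) for 3 classes of protein. Filled points and bars give the aly1-2 median and interquartile range, open diamonds the wild-type median, and the dashed line the aly1-2 median of all genes, -0.16. From 500 bases upward the aly1-2 medians fall with length in each class, and those with an N-terminal hydrophobic stretch lie lowest.

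The lists of wall and membrane proteins gave named examples. Of 21 cellulose and callose synthase genes, large enzymes of the plasma membrane, 18 (85.7%) were lower and 0 higher. Their median was -1.52 and lay below that of all genes under each scaling run. GSL5, which makes callose at wounds, was at 56.9, 59.6 and 62.6 CPM in total RNA and at 13.8 and 8.48 CPM in cytoplasmic RNA (log2 -2.39, SE 0.28, adjusted p = 9.05e-05). CALS5, which makes the callose around developing pollen, was at 9.63, 16.7 and 26.6 CPM in total RNA and at 0.353 and 1.59 CPM in cytoplasmic RNA (log2 -4.32, SE 0.72, adjusted p = 0.00077). Without cytoplasmic replicate 1 the CALS5 difference was -3.42 and without cytoplasmic replicate 2 it was -5.57. The transcripts of GSL5 and CALS5 are 6041 and 6250 bases long, in the longest class. In that class, genes with the N-terminal stretch had a median of -1.21 and 55.5% were lower. Those with only the membrane-span-like window had a median of -1.10 and 55.0% were lower. Of 35 genes of cell wall and secreted proteins, 5 (14.3%) were higher and 17 (48.6%) lower, with a median of -0.66. The higher count was 3 without total replicate 2. AGP9, an arabinogalactan protein of the cell surface, was at 335, 382 and 331 CPM in total RNA and at 75.2 and 84.3 CPM in cytoplasmic RNA (log2 -2.13, SE 0.17, adjusted p = 9.65e-06). AT2G20870, annotated as a cell wall protein precursor, was at 1380, 1280 and 1100 CPM in total RNA and at 245 and 172 CPM in cytoplasmic RNA, 6-fold lower. Its transcript is 786 bases long, in the short class whose median lay above that of all genes.

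The lists of the endoplasmic reticulum and of membrane transport both had medians below that of all genes. Of 15 genes of the secretory pathway, 1 (6.67%) was higher and 8 (53.3%) lower, with a median of -0.82. PDIL1-2, a disulfide isomerase that folds secreted proteins, was at 38, 36.5 and 37 CPM in total RNA and at 16.2 and 10.6 CPM in cytoplasmic RNA (log2 -1.44, SE 0.23). Of 21 membrane transporters and pumps, 2 (9.52%) were higher and 10 (47.6%) lower, with a median of -0.59. SUC2, which loads sucrose into the phloem, was at 31.4, 36.5 and 43.5 CPM in total RNA and at 15.5 and 17.0 CPM in cytoplasmic RNA (log2 -1.20, SE 0.23). FAD2, a fatty acid desaturase of the endoplasmic reticulum, was at 594, 600 and 667 CPM in total RNA and at 281 and 352 CPM in cytoplasmic RNA (log2 -0.97, SE 0.16). Of 23 genes of glycolysis and cytosolic metabolism, 1 (4.35%) was higher and 13 (56.5%) lower, with a median of -0.60. The lower count was 6 without cytoplasmic replicate 2 and 8 without cytoplasmic replicate 1. It was 7 without total replicate 1, 8 without total replicate 2 and 7 with RLE size factors. SAM1, which makes S-adenosylmethionine, was at 342, 381 and 318 CPM in total RNA and at 153 and 146 CPM in cytoplasmic RNA (log2 -1.21, SE 0.15). Of 28 cytoskeleton genes 4 (14.3%) were higher and 14 (50%) lower, with a median of -0.46. The tubulin TUA2, all of whose counts lay in shared values, was lower at 175 and 194 CPM against 469, 535 and 517 CPM.

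**Figure D5:**
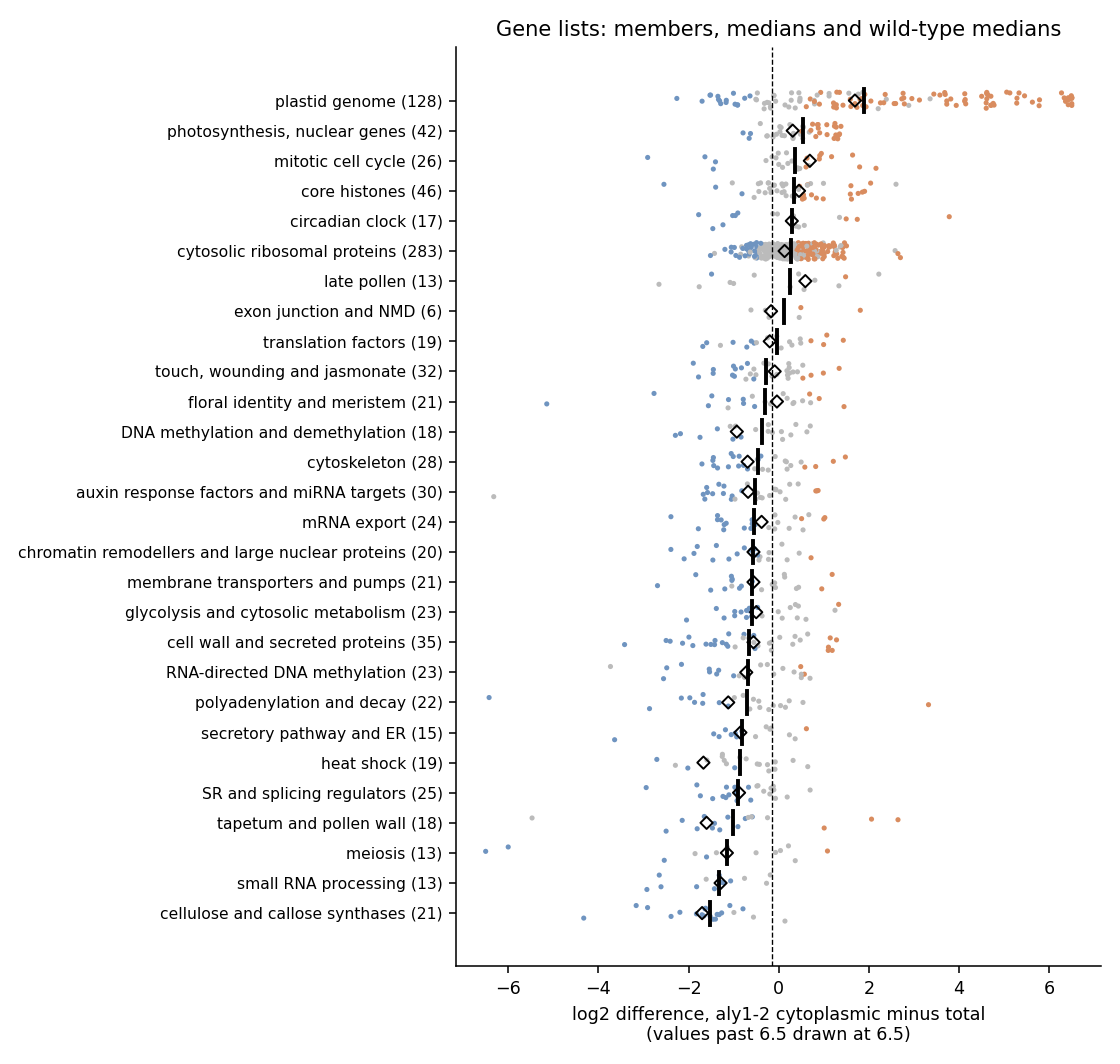
Log2 difference, cytoplasmic minus total (horizontal axis), of each tested member of 28 gene lists in aly1-2 (orange higher, blue lower, grey not past the threshold), with a bar for the list's median and a diamond for its wild-type median. The dashed line marks the median of all genes, -0.16, and the plastid genome and the cellulose and callose synthases stand at the 2 ends.

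In the lists of mRNA export and of splicing regulators the lower share exceeded the 21.8% of all genes tested. Of 24 genes of mRNA export, 3 (12.5%) were higher and 13 (54.2%) lower, with a median of -0.55. ALY2, another member of the ALY family, was at 106, 100 and 103 CPM in total RNA and at 47.0 and 41.9 CPM in cytoplasmic RNA (log2 -1.21, SE 0.16, adjusted p = 0.000176). SAC3B, a scaffold of export at the nuclear pore, was at 57.5, 54.1 and 67.6 CPM in total RNA and at 12.0 and 10.6 CPM in cytoplasmic RNA (log2 -2.39, SE 0.30). Both pairs of groups were clear of each other. Of 25 SR proteins and splicing regulators 15 (60%) were lower and 0 higher, with a median of -0.90. PTB3, a polypyrimidine tract-binding protein, was at 77.7, 89.9 and 72.2 CPM in total RNA and at 24.0 and 23.9 CPM in cytoplasmic RNA (log2 -1.74, SE 0.19). Of 6 genes of the exon junction complex and nonsense-mediated decay, 2 (33.3%) were higher and 0 lower, with a median of 0.12. PYM, a partner of the exon junction proteins Y14 and MAGO, was at 23.0, 17.9 and 21.2 CPM in total RNA and at 85.1 and 59.4 CPM in cytoplasmic RNA (log2 1.81, SE 0.22). The other higher member was Y14 (log2 0.49, SE 0.17, adjusted p = 0.0354, 59% in shared values), which did not pass under 11 of 22 alternatives. Those were leaving out cytoplasmic replicate 1 (0.36), total replicate 2 (0.49), total replicate 3 (0.42) or any one of the 3 wild-type total libraries, the replicate block, only the 5 aly1-2 libraries, all 14 libraries, no TMM and no filter.

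Poly(A) polymerases were among the lower members of the polyadenylation and decay list. Of its 22 genes, 1 (4.55%) was higher and 9 (40.9%) were lower, with a median of -0.71. PAPS2 was at 256, 275 and 312 CPM in total RNA, at 83.7 and 58.9 CPM in cytoplasmic RNA and at 781 and 993 CPM in nuclear RNA. PAPS1 was at 129, 145 and 149 CPM, 41.7 and 46.7 CPM, and 347 and 471 CPM in the same order, and PAPS4 was at 405, 393 and 427 CPM, 106 and 76.3 CPM, and 798 and 843 CPM. The cytoplasmic differences were -1.97, -1.68 and -2.16 and the nuclear differences 1.72, 1.6 and 1.07. For each of the 3 genes the nuclear libraries were thus highest and the cytoplasmic ones lowest. Over 98% of the counts of each lay in shared values. AT1G70620, annotated as a cyclin-like protein, had the same order with few shared reads: 428, 541 and 718 CPM in total RNA, 263 and 145 CPM in cytoplasmic RNA and 1960 and 3440 CPM in nuclear RNA. Both differences of a gene use the same total libraries, so they are given side by side and not as independent results.

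The lists of silencing and chromatin genes had medians below that of all genes, and in each the lower share exceeded the 21.8% of all genes tested. Of 13 genes of small RNA processing, 9 (69.2%) were lower and 0 higher, with a median of -1.32. RDR6, which copies RNA into double strands for small RNAs, was at 25.4, 30.6 and 30 CPM in total RNA and at 4.59 and 2.65 CPM in cytoplasmic RNA (log2 -2.92, SE 0.30, adjusted p = 4.47e-05). DCL2, which cuts such strands, was at 21.4, 27.2 and 24.0 CPM in total RNA and at 3.53 and 4.24 CPM in cytoplasmic RNA (log2 -2.65, SE 0.33). DCL1, which cuts microRNA precursors, was lower by less (log2 -1.82, SE 0.24). Of 23 genes of RNA-directed DNA methylation, 2 (8.7%) were higher and 8 (34.8%) lower, with a median of -0.68. The higher count was 0 without total replicate 1 or total replicate 3. AGO9, an Argonaute of the ovule and germ line, was at 134 ± 8.81 CPM (SD, n = 3) in total RNA and at 22.7 ± 1.35 CPM (SD, n = 2) in cytoplasmic RNA, 5.88-fold lower (adjusted p = 4.23e-06). Of 18 genes of DNA methylation and demethylation, 6 (33.3%) were lower and 0 higher, with a median of -0.37. MET1, the maintenance methyltransferase, was at 33.4, 40.5 and 36.7 CPM in total RNA and at 8.83 and 5.83 CPM in cytoplasmic RNA (33.4% in shared values). Of 20 chromatin remodellers and large nuclear proteins 12 (60%) were lower and 1 (5%) higher, with a median of -0.58. NRPB1, the largest subunit of RNA polymerase II, was at 75.5, 75.1 and 70.1 CPM in total RNA and at 25.8 and 13.3 CPM in cytoplasmic RNA (log2 -1.88, SE 0.24). The transcripts of RDR6, DCL2 and NRPB1 are 4271, 4824 and 6225 bases long, all in the longest class. Of 30 auxin response factors and microRNA targets 3 (10%) were higher and 11 (36.7%) lower, with a median of -0.52. Among the lower ones was ARF8, at 84.7, 109 and 96.8 CPM in total RNA against 21.5 and 43.5 CPM in cytoplasmic RNA.

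Stress and clock genes were mixed. Of 32 genes of touch, wounding and jasmonate, 4 (12.5%) were higher and 11 (34.4%) lower, with a median of -0.28. The higher count was 2 without cytoplasmic replicate 1, total replicate 2 or total replicate 3. LOX3, a lipoxygenase that starts jasmonate synthesis, was at 95.9, 87.3 and 117 CPM in total RNA and at 26.8 and 31.8 CPM in cytoplasmic RNA (log2 -1.78, SE 0.25). Of 19 heat shock genes 3 (15.8%) were lower, a share below the 21.8% of all genes tested, and 0 higher, with a median of -0.86. Only 1 was lower without cytoplasmic replicate 2, and without total replicate 1 the list's median stood 0.11 above that of all genes. Of 17 clock genes 3 were higher and 6 lower, with a median of 0.30. ZTL, an F-box protein that targets clock proteins for breakdown, was at 45.0, 45.0 and 45.0 CPM in total RNA and at 16.2 and 16.4 CPM in cytoplasmic RNA (log2 -1.46, SE 0.23), opposite to LHY.

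Genes of flower tissues were taken list by list, with no test of one tissue against another. Of 21 genes of floral identity and meristem, 3 (14.3%) were higher and 8 (38.1%) lower, with a median of -0.30. The lower count was 4 without cytoplasmic replicate 1 and 5 without total replicate 2 or total replicate 3 and with RLE size factors. ANT, which promotes organ growth, was at 51.6, 63.6 and 53.2 CPM in total RNA and at 16.2 and 22.3 CPM in cytoplasmic RNA (log2 -1.56, SE 0.23). Of 18 genes of tapetum and pollen wall, 3 (16.7%) were higher and 11 (61.1%) lower, with a median of -1.02. The lower count was 5 without cytoplasmic replicate 1. ATA20, expressed in anthers, was at 566, 531 and 719 CPM in total RNA and at 134 and 202 CPM in cytoplasmic RNA (log2 -1.85, SE 0.25). GRP17, the main oil-body protein of the pollen coat, was at 6510, 12900 and 16200 CPM in total RNA and at 1760 and 2440 CPM in cytoplasmic RNA, with all counts in shared values (log2 -2.50, SE 0.35). In wild type the differences of ATA20 and GRP17 were -1.99 and -3.06. In such bulk extracts fewer cells of a type, less RNA per cell and where an RNA sits or sediments cannot be told apart. Of 13 late pollen genes 1 (7.69%) was higher and 1 (7.69%) lower. The higher count was 3 without cytoplasmic replicate 1 or total replicate 3 and 0 without any other aly1-2 library here, and the lower count was 4 without total replicate 1 and 0 without cytoplasmic replicate 1. PRK2A, a pollen receptor kinase, was higher (1.48, adjusted p = 0.0398) but not without cytoplasmic replicate 2 (0.92), total replicate 1 (1.09) or total replicate 2 (1.36), and PPME1, a pectin methylesterase of pollen with 78.4% of counts in shared values, was lower (-1.49, adjusted p = 0.0127) but not without cytoplasmic replicate 1 (-1.06). The list's median of 0.25 lay above that of all genes but below it without either cytoplasmic library. Of 13 meiosis genes 1 (7.69%) was higher and 4 (30.8%) lower, with a median of -1.14. The lower count was 1 to 3 without any one of the 5 libraries. DMC1, the recombinase that pairs homologous chromosomes in meiosis, was at 16.6, 20.5 and 14.6 CPM in total RNA and at 37.4 and 35.5 CPM in cytoplasmic RNA (log2 1.08, SE 0.26, adjusted p = 0.00718). MSH5, a MutS homologue of meiotic crossovers, had 197 reads in total RNA and 0 in cytoplasmic RNA, at least 9.90-fold lower against a floor of 3 counts over the group (25.6% in shared values).

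Markers of bud tissues were present. All members of the floral, tapetum, late pollen, meiocyte, meristem and mesophyll sets that the reference names had reads in these 5 libraries. The summed level of 5 floral identity genes was 862, 893 and 848 CPM in total RNA and 1080 and 972 CPM in cytoplasmic RNA. That of 7 tapetum markers was 169, 191 and 195 CPM in total RNA and 86.5 and 98.6 CPM in cytoplasmic RNA. Late pollen markers varied most, at 591, 1140 and 2440 CPM in total RNA and 516 and 757 CPM in cytoplasmic RNA, so the total libraries differ in late pollen RNA. The part of tissue make-up in the differences was not tested. Seed storage markers, which buds should lack, summed to 0.0845, 0.105 and 0.504 CPM in total RNA and to 5.30 and 4.24 CPM in cytoplasmic RNA. In cytoplasmic RNA nearly all of that was CRA1, a cruciferin of seeds, at 5.29 and 4.24 CPM, while it was at 0, 0 and 0.202 CPM in total RNA. Root markers summed to 15.9, 15.8 and 19.3 CPM in total RNA and to 6 and 1.59 CPM in cytoplasmic RNA.

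Transfer RNA genes, whose products carry amino acids to the ribosome, had more reads in cytoplasmic RNA. How evenly poly(A) selection held tRNA back in the fractions was not tested. The 604 nuclear tRNA genes summed to 7.27, 10.3 and 14.7 CPM in total RNA and to 175 and 180 CPM in cytoplasmic RNA, on 86 to 146 reads in a total library and 495 and 339 in a cytoplasmic one. The 2 fractions did not overlap in this sum (two-sided exact permutation test, p = 0.2, the smallest possible). Nuclear RNA held 15.2 and 16.8 CPM, also above every total library, and wild-type cytoplasmic RNA 156 and 230 CPM. Only 38 tRNA genes passed the filter on low counts, most of them through their cytoplasmic counts, so their calls are not counted here. Sequences of tRNAs with reads in cytoplasmic RNA and none or few in total RNA are shown, from RefSeq on TAIR10.1, 5′ to 3′. Capitals mark the anticodon. These genes passed the filter through their cytoplasmic counts and were picked for that contrast. Their ratios describe the genes picked and are not a test of the difference. The 2 tRNA-Met genes carry the same 72 bases, and their reads are uncertain between them. AT5G09975, a tRNA-Leu gene at chr5:3118377-3118457 (plus strand), had 40 reads in cytoplasmic RNA and 0 in total RNA, at least 88.5-fold higher. AT5G57885, tRNA-Met at chr5:23445994-23446065 (plus strand), had 39 reads in cytoplasmic RNA and 0 in total RNA, at least 86.3-fold higher. AT2G23650, tRNA-Met at chr2:10059446-10059517 (minus strand), had 38 and 3 reads, a ratio of 84.1 with a 95% counting interval from 26.7 to 426.
AT5G09975: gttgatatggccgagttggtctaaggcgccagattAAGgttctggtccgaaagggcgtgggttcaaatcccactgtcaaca
AT5G57885: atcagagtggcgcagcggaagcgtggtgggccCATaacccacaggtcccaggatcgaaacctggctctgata
AT2G23650: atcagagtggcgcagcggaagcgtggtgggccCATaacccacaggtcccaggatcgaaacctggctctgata

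Genes of spliceosomal snRNAs, the RNA core of the splicing machinery, had a higher summed level too. As for tRNA, how evenly poly(A) selection held snRNA back was not tested. The 82 annotated snRNA genes summed to 42.8, 38.7 and 58.2 CPM in total RNA, to 200 and 261 CPM in cytoplasmic RNA and to 98.5 and 150 CPM in nuclear RNA, and 23 of them passed the filter. The total libraries thus lay below those of both fractions in this sum, and the cause was not tested. U1.5 (AT1G08115, chr1:2538074-2538238, minus strand), a copy of the U1 RNA that pairs with the 5′ splice site, was at 4.31, 4.5 and 8.67 CPM in total RNA and at 55.4 and 97.0 CPM in cytoplasmic RNA (log2 3.70, SE 0.35, adjusted p = 2.34e-05, 51.8% in shared values). The capitals in its sequence mark ACTTACCTG, the stretch complementary to the 5′ splice site, which 4 of the 82 snRNA genes (4.88%) hold on either strand. The snoRNA genes, which guide modification of rRNA in the nucleolus, had a lower sum. All 285 of them came to 398, 379 and 360 CPM in total RNA, 289 and 220 CPM in cytoplasmic RNA and 716 and 826 CPM in nuclear RNA.
U1.5: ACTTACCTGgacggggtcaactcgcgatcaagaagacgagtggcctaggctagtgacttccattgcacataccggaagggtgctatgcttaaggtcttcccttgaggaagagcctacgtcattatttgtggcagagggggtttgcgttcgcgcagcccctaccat

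Long non-coding RNAs and transcribed pseudogenes had their lowest summed levels in cytoplasmic RNA and their highest in nuclear RNA. The 3479 lncRNA genes summed to 3040, 3170 and 3390 CPM in total RNA, 2170 and 2210 CPM in cytoplasmic RNA and 5430 and 6470 CPM in nuclear RNA. Of 417 lncRNA genes tested, 39 (9.35%) were higher (24 genes without total replicate 2) and 93 (22.3%) lower, with a median of -0.87. The lower share was near the 21.8% of all genes tested. The 905 transcribed pseudogenes summed to 1990, 2240 and 2780 CPM in total RNA, 1300 and 1260 CPM in cytoplasmic RNA and 5070 and 7260 CPM in nuclear RNA. Of 144 of them tested, 19 were higher and 32 lower, with a median of -0.08 against -0.16 for all genes. Their calls and median thus did not stand apart from all genes tested, of which 15.5% were higher and 21.8% lower. AT1G25098, a non-coding RNA with all counts in shared values, was at 398, 459 and 437 CPM in total RNA and at 61.8 and 45.6 CPM in cytoplasmic RNA (log2 -3.00, SE 0.20). Another non-coding gene went the other way. AT2G15128 (chr2:6564104-6564316, plus strand), annotated as other RNA, was at 1.77, 5.02 and 7.36 CPM in total RNA and at 193 and 311 CPM in cytoplasmic RNA, 53.8-fold higher (adjusted p = 1.77e-05), with no shared reads. None of the 326 microRNA genes passed the filter on low counts. AT2G01021 (chr2:6571-6672, plus strand) is annotated as protein-coding, but each of its 25-base stretches also occurs in the 45S rRNA region. It took 0.369%, 0.421% and 0.664% of all counts in total RNA and 3.14% and 3.74% in cytoplasmic RNA, a ratio of 7.10 that lay beside the 10.2 of the rRNA genes. Both sequences are shown whole, from RefSeq on TAIR10.1, the first as the non-coding gene other than tRNA with the highest difference among the named genes and the second for its match to rRNA.
AT2G15128: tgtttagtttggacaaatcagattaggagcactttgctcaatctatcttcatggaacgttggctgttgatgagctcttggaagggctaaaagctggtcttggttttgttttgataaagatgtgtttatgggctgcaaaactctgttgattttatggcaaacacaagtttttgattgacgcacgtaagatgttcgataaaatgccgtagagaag
AT2G01021: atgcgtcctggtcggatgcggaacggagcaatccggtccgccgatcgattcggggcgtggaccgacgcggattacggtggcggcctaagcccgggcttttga

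Wild-type cytoplasmic and total RNA, which share no library with the mutant, shared most of their calls with it. Both sets of calls came from the same fit, with 1 spread per gene and 1 filter, so they are not independent tests. In wild type 3784 genes (17.2%) were higher and 4842 (22%) lower in cytoplasmic RNA. Of the 3395 genes higher in aly1-2, 2439 (71.8%) were also called higher in wild type, which is 64.5% of the wild-type calls, and 3273 (96.4%) had the same sign. Of the 4801 genes lower in aly1-2, 3363 (70%) were also called lower in wild type, which is 69.5% of the wild-type calls, and 4566 (95.1%) had the same sign. Only 10 and 15 genes were called in opposite directions. Medians in wild type were 1.69 for the plastid genome, 0.31 for nuclear photosynthesis genes, 0.13 for ribosomal proteins, -0.88 for splicing regulators and -1.70 for cellulose and callose synthases, of which 17 were lower and 0 higher. The test of the difference between genotypes called 0 genes with edgeR (2439 at an unadjusted p under 0.05, 11.1% of those tested) and 182 with DESeq2. TRANS11, annotated as a translocase, was at 15.6, 18.1 and 19.9 CPM in mutant total RNA and at 1.06 and 1.06 CPM in mutant cytoplasmic RNA, and at 14.8, 13.7 and 16.1 CPM and 3.84 and 7.03 CPM in wild type. The mutant difference was -4.05 and the wild-type one -1.42, and the difference between them, -2.63, did not pass (adjusted p = 0.196). WRKY33, a factor of defence against fungi with 40.9% of its counts in shared values, was at 79.5, 60.9 and 69.2 CPM in mutant total RNA and at 22.6 and 14.3 CPM in mutant cytoplasmic RNA. In wild type it was at 76.8, 93.0 and 53.0 CPM in total RNA and at 89.6 and 50.5 CPM in cytoplasmic RNA, and the difference between genotypes was -1.80 (adjusted p = 0.228).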

How the data were processed

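Gene counts of 10 of the 14 libraries entered the main fit: aly1-2 and wild-type total RNA (3 libraries each) and cytoplasmic RNA (2 each). All 14 entered a second fit for the nuclear values printed beside them. Per the labels' protocols, buds were fractionated, RNA was taken up in Trizol LS and poly(A)-selected, and directional libraries were read on a HiSeq4000. The deposited values are estimated counts (expected counts). Per the submitters' processing notes, the authors used TAIR10, STAR 2.5.1b and, from Subread 1.6.1, featureCounts. Fractions in the values show that some reads were shared between genes, and 86.4% to 92.2% of values in a library were whole. The rule for reads that map more than once is not stated in the labels. The labels name no batch. The design had been planned for whole counts, and the values were rounded before testing.

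Genes were tested with edgeR 4.0.16 (R 4.3.3, quasi-likelihood F-test) after filterByExpr (minimum count 10, minimum total 15), with a mean per group and 6 residual degrees of freedom, a common biological coefficient of variation of 0.231 and Benjamini-Hochberg adjustment. TMM factors and library sizes came from nuclear-genome genes without the rRNA genes AT2G01010, AT2G01020, AT3G41768 and AT3G41979. SE is the log2 difference divided by the square root of F. Depth ran from 7.94 to 12.74 M counts (M for 1e6) in the mutant libraries, and counting intervals and floors (3 counts over a group, exact 95% binomial interval) cover counting error only. Shares of counts were compared by exact permutation tests. The steps were also run on simulated counts in which a small set of genes, balanced up and down, was changed. That run did not shift composition between the fractions, so it cannot bear on the choice of scaling. Gene names, types, lengths, exons, GC content and sequences came from RefSeq on TAIR10.1, in which 37051 of 37336 identifiers matched, the other 285 being organelle genes. No genes were tested as sets.

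Named genes were ALY1, the 10 highest and 10 lowest differences among passing nuclear-genome genes with a mean of at least 10 CPM, no overlap between the fractions and at most 10% of counts in shared values, the 5 most abundant in each direction, and up to 4 members of each of 33 lists with the smallest p. Only some are printed, and 24 more genes were chosen after their values were seen. No gene passed the interaction test, so none was named for it. Members, lists and rules were chosen with earlier results of these data known. Of the lists' members 54 were not matched by symbol and left out. Alternatives were other scalings (RLE, no TMM, all genes, without the mitochondrial insertion of chromosome 2), DESeq2 1.42.0, other filters, all 14 or only the 5 mutant libraries, the replicate block, leaving out each library, other transcript choices and thresholds, and, chosen after seeing the data, leaving out genes that share sequence with rRNA or organelles.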

Additional observations from a re-analysis of the deposited data

How the results depend on the processing

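Counts of higher genes ran from 2357 to 4152 and of lower genes from 3568 to 5579 when each library was left out in turn, against 3395 and 4801. RLE size factors gave 4153 higher and 3954 lower genes (51.2% and 48.8% of calls), DESeq2 4579 and 4413 (50.9% and 49.1%), library sizes without TMM 2406 and 6153 (28.1% and 71.9%) and scaling on all genes 3590 and 4568. Leaving genes that share sequence with rRNA or organelles out of scaling gave 3612 higher and 4537 lower genes. All counts of higher and lower genes in these alternatives were within 1.5 times the reported ones. The count of genes that differ between genotypes was 0, but 182 with DESeq2, 1 with all 14 libraries, 39 with no filter and 0 to 3 when a library was left out. The replicate block gave 2728 higher and 3923 lower genes and 0 that differ between genotypes. The numbers are not stated to pair libraries. Deviations of same-numbered libraries correlated by 0.34 and 0.27 in aly1-2 and by 0.12 and 0.04 in wild type. Cytoplasmic replicate 2 with total replicate 3 gave 0.22 in aly1-2 and 0.07 in wild type, and the other pairs were negative. Deviations of 2 cytoplasmic libraries from their mean mirror each other, so these values cannot settle whether libraries are paired.

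The cytoplasmic minus total difference of the mitochondrial share was 0.0703 percentage points and ran from -0.0757 to 0.216 when a library was left out, changing sign without total replicate 1 (-0.001) and without cytoplasmic replicate 2 (-0.0757). Of 3791 values of named genes under an alternative, 3691 kept their direction and side of the threshold, 71 lost the call, 25 gained one and 4 changed sign. Those 4 were MAPKKK19 without cytoplasmic replicate 1 (0.63, against -5.96 without cytoplasmic replicate 2) and PCFS4 with DESeq2 (0.02), with RLE size factors (0.03) and without cytoplasmic replicate 1 (0.29, against -0.56 without cytoplasmic replicate 2). The cause was not tested. Relative to all genes, 609 of 768 medians of lists and classes moved by no more than the limit set. For most that limit was the SD of the 2 values that leave out either cytoplasmic library. Those 2 settings are themselves among the ones counted, so the count is partly set by its limit. For other transcript choices and thresholds the limit was a fixed one. Without TMM, 64 of 283 ribosomal protein genes were higher and 48 lower, 9 of 46 histone genes were higher and 8 lower, and 3 of 26 mitotic genes, 1 of 24 mRNA export genes and 2 of 32 touch and jasmonate genes were higher. Lower genes then numbered 14 in the polyadenylation list and 5 in the heat shock list. RLE size factors gave 15 lower ribosomal protein genes. Counts of 2 or fewer in a list changed by up to 3 when a library was left out. With the shortest annotated transcript the median of the longest class stood 0.84 below that of all genes. Depth limits low genes, since the cytoplasmic libraries held only 3.24 and 2.1 M nuclear-genome counts.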

Other observations

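Some pseudogenes were many-fold higher in cytoplasmic than total RNA, chosen here for their low p among pseudogenes and transposable element genes. AT4G06477 was at 0.338, 0.732 and 2.32 CPM in total RNA and at 120 and 134 CPM in cytoplasmic RNA, with all counts in values shared with other genes. AT3G28160 was at 4.99, 5.54 and 6.45 CPM in total RNA and at 71.3 and 102 CPM in cytoplasmic RNA, most of its counts in shared values. AT3G43690 went the other way, at 82.3, 99.5 and 90.4 CPM in total RNA and 8.83 and 5.30 CPM in cytoplasmic RNA, with 98.8% of counts in shared values. AT3G20362, an uncharacterized gene with 66.2% of its 25-base stretches also in the plastid genome, was at 0.169, 0.209 and 0.605 CPM in total RNA and at 38.8 and 39.8 CPM in cytoplasmic RNA. The part of shared sequence in these values was not tested.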
